A study of Homo sapiens with 6 samples.

Results

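The small MAF factors MAFF, MAFG and MAFK, their cap 'n' collar (CNC) and BACH partners BACH1, NFE2L1 and NFE2L2, and KEAP1, the inhibitor of NFE2L2, are described here as 7 genes among the 12154 protein-coding genes listed in 1 table of RNA-seq values. MAFF was chosen by its call in the comparison of the 2 groups, so its difference is given as a description without a test, and the other 6 genes were chosen as its family, partners and inhibitor. All 7 genes passed the filter on low values. RNA-seq covered human lung adenocarcinoma cells in 3 libraries of AS-tDR-007333-overexpressed cells, set against 3 of NC cells. The labels give A549 cells that received a tRF plasmid or an empty vector with a Lipofectamine reagent, while the study's methods give PC9 cells that received the fragment or its NC over 48 h, so these sources differ on both the line and the molecule that was transfected. Cells of both groups were therefore transfected. Separate cultures are stated by neither source, and the p-values cover only the spread among the 6 libraries, which may be technical.

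Small MAF proteins are basic leucine zipper factors that lack a transactivation domain. They form homodimers that repress transcription, and heterodimers with the CNC activators NFE2L1 (NRF1) and NFE2L2 (NRF2) or with the repressor BACH1, and these heterodimers bind the antioxidant response element and related sequences. NFE2L2 drives genes of glutathione synthesis, quinone reduction and NADPH supply. KEAP1 is the adaptor through which the CUL3 ubiquitin ligase marks NFE2L2 for degradation, and loss of KEAP1 function is frequent in lung adenocarcinoma, the A549 line included. BACH1 holds back heme oxygenase and ferritin genes until heme removes it, and NFE2L1 is processed from the endoplasmic reticulum and drives proteasome genes. These factors are regulated in large part as proteins, through turnover and localization, which RNA levels do not measure.

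The fragment for which the groups are named and the control oligonucleotide of the study's methods are shown first, although the labels give a plasmid and an empty vector instead. AS-tDR-007333 is a small RNA from the 5′ end of a glycine tRNA, and both oligonucleotides were taken from the study's supplementary table, written 5′ to 3′.
Fragment AS-tDR-007333: gcauuggugguucagugguagaauucuu
Control (NC): gagaauuuugauggccguucuguaugug
Each is 28 bases long with 5 A, 3 C, 9 G and 11 U, so the base composition of the control is the same as that of the fragment, and 8 positions carry the same base in both.

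The first of 2 MAFF promoter windows is shown because MAFF was the only one of the 7 genes whose libraries separated by group. The sequence, from the RefSeq promoter table (GRCh38.p14), matched GRCh37 exactly and is given there, on the plus strand. It is the 250 bases before a RefSeq transcript start, chr22:38597751-38598000. The MAFF span given with the values starts upstream of it, at 38596774, so both MAFF windows lie inside that span. The bases before the start of the span were not read. Capitals mark matches to 2 motifs of the dimers of this family and of related leucine zipper factors, as found on either strand.
MAFF promoter: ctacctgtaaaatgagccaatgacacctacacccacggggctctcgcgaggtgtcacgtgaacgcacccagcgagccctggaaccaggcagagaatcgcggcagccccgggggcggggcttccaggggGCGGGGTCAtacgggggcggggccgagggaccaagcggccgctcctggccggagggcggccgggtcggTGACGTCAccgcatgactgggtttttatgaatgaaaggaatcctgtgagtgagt
The first match, at -122 from the transcript start, is the core of the antioxidant response element, TGACNNNGC, read on the minus strand. The second, at -54, is the palindromic cAMP response element TGACGTCA. On both strands, TGACNNNGC occurred in 13.3% and TGACGTCA in 1.85% of 35116 RefSeq promoter windows of 300 bases. The AP-1 motif TGANTCA, in 7.71% of windows, and the ETS motif CCGGAAG, in 10.3% of windows, had no match in either MAFF window, and the second MAFF window held none of the 4 motifs. Of the other genes, 1 of the KEAP1 windows held the antioxidant response element core at 2 places, 1 BACH1 window held an AP-1 match, 2 BACH1 windows and 1 NFE2L2 window held an ETS match, and MAFG and NFE2L1 had no match. The table matched 6 of the 7 genes, all but MAFK. Such matches describe letters in a window and do not show binding.

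FPKM, which counts fragments per kilobase of a gene relative to all mapped fragments, summed to 197324 to 202921 per library, of which mitochondrial genes held 15.1 to 15.8%. No counts were given, so the depth of each library and the counting error of each value are unknown. Values were compared as log2(FPKM + 1) with limma over the 11042 genes that averaged 1 FPKM or more, and p-values were adjusted over all of them (Benjamini-Hochberg), with calls at an adjusted p under 0.05. Fold changes are on this scale, which understates changes of genes with low FPKM. All 8 epithelial markers were listed, with summed levels of 1687 to 1789.8 FPKM in AS-tDR-007333 libraries and 1565 to 1728 FPKM in NC libraries. Of these 8, 1 was higher at an unadjusted p under 0.05 (KRT18, a keratin of simple epithelia), against 1.63% of all genes tested, and 0 were lower. EPCAM, an epithelial adhesion gene, had groups that did not overlap in the other direction, at 153 to 160 FPKM in AS-tDR-007333 libraries and 163 to 168 FPKM in NC libraries. Of the lung lineage markers 1 of 8 was listed (NAPSA, 0.345 to 0.467 FPKM in AS-tDR-007333 libraries and 0.436 to 0.563 FPKM in NC libraries), of the fibroblast markers 1 of 7 (COL1A1, 5.71 to 6.04 FPKM in AS-tDR-007333 libraries and 5.09 to 6.10 FPKM in NC libraries), of the leukocyte markers 2 of 6 (CD68 and ITGAM, summed 13.8 to 18.6 FPKM in AS-tDR-007333 libraries and 13.0 to 16.8 FPKM in NC libraries), and of the endothelial markers 0 of 4. The part of these markers in the results was not tested. Of 9 A549-associated genes, 8 were listed. CDKN2A, the tumor suppressor gene that is deleted in A549, was at 12.4, 16.2 and 17.5 FPKM in AS-tDR-007333 libraries and at 9.84, 14.2 and 12.1 FPKM in NC libraries, and its neighbour CDKN2B was at 14.3 to 16.3 FPKM in AS-tDR-007333 libraries and 15.7 to 16.9 FPKM in NC libraries. ALDH1A1, an aldehyde dehydrogenase abundant in A549, was not among the listed genes. These go against the labelled line. AKR1B10, at 152.4 to 159.2 FPKM in AS-tDR-007333 libraries and 153.2 to 162.6 FPKM in NC libraries, and AKR1C3, at 161.5 to 178.5 FPKM in AS-tDR-007333 libraries and 159.0 to 171.3 FPKM in NC libraries, together with AKR1C1, AKR1C2 and GPX2, were abundant in all 6 libraries, as is known of A549, while CPS1 was at 2.17 to 2.38 FPKM in AS-tDR-007333 libraries and 2.24 to 2.30 FPKM in NC libraries. AKR1B10, AKR1C1, AKR1C2, AKR1C3 and GPX2 are also counted among the NFE2L2 targets below, so their levels need not be particular to A549. As the line was not settled, the cells are called here by their group names alone.

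MAFF was lower in AS-tDR-007333-overexpressed cells. MAFF is the small MAF factor best known for rapid induction by growth factors, cytokines and stress. Its level was 2.29, 3.29 and 3.59 FPKM in AS-tDR-007333 libraries and 9.04, 8.97 and 9.04 FPKM in NC libraries. The groups did not overlap, and the highest AS-tDR-007333 library lay below the lowest NC library. The means were 3.06 ± 0.677 FPKM in AS-tDR-007333-overexpressed cells and 9.01 ± 0.0409 FPKM in NC cells (SD, n = 3 each), a ratio of 0.339 and a difference of -5.96 FPKM, and the log2 fold change was -1.32. The adjusted p that chose the gene was 0.0440 (limma), the largest among the 7 called genes, which were 0.0634% of the genes tested. RNF6, an E3 ubiquitin ligase gene, stood next outside the threshold, with an adjusted p of 0.0669 (limma) and a log2 fold change of -1.37. In bulk RNA, fewer cells that express a gene and less RNA per cell cannot be told apart. MAFF stayed under the threshold in 4 of 13 alternative analyses, with adjusted p-values of 0.0188 to 0.557, and its log2 fold change of -1.55 to -1.17 was negative in all 13. These analyses reuse the libraries that chose MAFF, so the shared sign is a description only. The NC libraries of MAFF lay close together: their SD on the log2 scale was lower than that of all but 0.38% of the genes tested. A call in this contrast favours genes with little spread within groups, so this closeness is a description only.

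**Figure D1:**
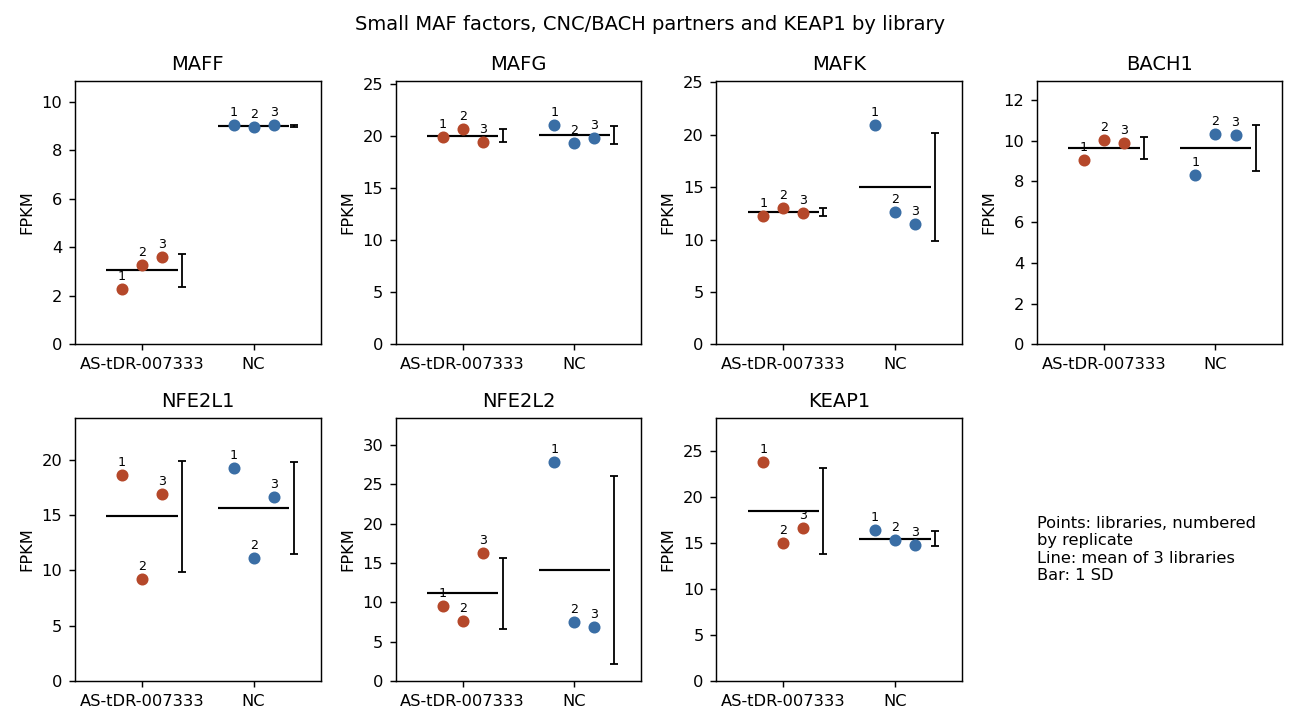
FPKM of the 7 genes in each library (points, numbered by replicate), with the mean (line) and 1 SD (bar) of 3 AS-tDR-007333 libraries and 3 NC libraries. MAFF lay at 2.29 to 3.59 FPKM in AS-tDR-007333 libraries and at 8.97 to 9.04 FPKM in NC libraries, and the groups overlapped for the other 6 genes.

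The other small MAF factors did not pass the test. MAFG, the most abundant of the 3 here, was at 20.0, 20.7 and 19.5 FPKM in AS-tDR-007333 libraries and at 21.1, 19.4 and 19.8 FPKM in NC libraries. The groups overlapped, with means of 20.1 ± 0.611 FPKM in AS-tDR-007333-overexpressed cells and 20.1 ± 0.882 FPKM in NC cells (SD, n = 3 each). Its log2 fold change was -0.0035 (standard error, SE, 0.05, 95% confidence interval, CI, -0.13 to 0.13, limma adjusted p = 0.9996). This was the narrowest interval of the 6 genes.

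MAFK, the third small MAF factor and a known dimer partner of BACH1 and NFE2L2, was at 12.3, 13.0 and 12.5 FPKM in AS-tDR-007333 libraries and at 20.9, 12.7 and 11.5 FPKM in NC libraries. NC replicate 1 stood apart, at 1.73 times the mean of the other NC libraries, and the groups overlapped. The means were 12.6 ± 0.383 FPKM in AS-tDR-007333-overexpressed cells and 15.0 ± 5.15 FPKM in NC cells (SD, n = 3 each). The log2 fold change was -0.19 (SE 0.20, 95% CI -0.69 to 0.30, limma adjusted p = 0.9996) and 0.06 without NC replicate 1.

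As all 3 small MAF factors can form such dimers, their transcripts were also summed. Whether one can replace another in these cells was not tested. The sum was 34.5, 37.0 and 35.6 FPKM in AS-tDR-007333 libraries and 51.1, 41.0 and 40.4 FPKM in NC libraries. Every AS-tDR-007333 library lay below every NC library, an order to which MAFF, the gene chosen by this contrast, contributed. The means were 35.7 ± 1.25 FPKM in AS-tDR-007333-overexpressed cells and 44.2 ± 6.0 FPKM in NC cells (SD, n = 3 each), a ratio of 0.808 and a difference of -8.46 FPKM. Without NC replicate 1, in which MAFK was high, the difference was -5.0 FPKM. MAFG and MAFK alone summed to 32.2, 33.7 and 32.02 FPKM in AS-tDR-007333 libraries and to 42.0, 32.1 and 31.3 FPKM in NC libraries, and these groups overlapped.

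The composition of the small MAF transcripts differed accordingly, as a description only, since MAFF, chosen by this contrast, enters every share. MAFF made up 6.65, 8.88 and 10.1% of their summed FPKM in AS-tDR-007333 libraries and 17.7, 21.9 and 22.4% in NC libraries. The mean share was 8.54 ± 1.74% in AS-tDR-007333-overexpressed cells and 20.6 ± 2.57% in NC cells (SD, n = 3 each), a difference of -12.1 percentage points that ranged from -13.6 to -11.2 when each library was left out in turn. MAFG made up 57.8, 56.0 and 54.8% in AS-tDR-007333 libraries and 41.3, 47.3 and 49.1% in NC libraries, although its own level differed by -0.058 FPKM between the means. MAFG had the largest share in all 6 libraries, although in NC replicate 1 MAFK was nearly level, at 41.0% against 41.3%. The MAFG share was higher in every AS-tDR-007333 library than in any NC library. FPKM is scaled to gene length, which allows these sums across genes, and the proteins were not measured.

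**Figure D2:**
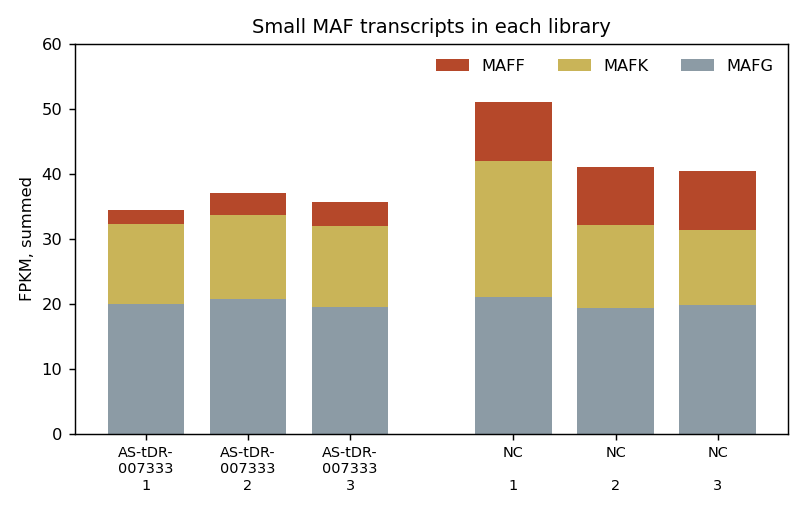
Stacked FPKM of MAFG, MAFK and MAFF in each of 3 AS-tDR-007333 libraries and 3 NC libraries. The MAFF segment was smaller in every AS-tDR-007333 library, the MAFG segment was similar across libraries, and the tall bar of NC replicate 1, at 51.1 FPKM, held 20.9 FPKM of MAFK.

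The CNC activators varied more between libraries of one group than between the groups. NFE2L1, the activator of proteasome genes, was at 18.6, 9.19 and 16.9 FPKM in AS-tDR-007333 libraries and at 19.3, 11.1 and 16.6 FPKM in NC libraries. It was low in replicate 2 of both groups, and the groups overlapped. The means were 14.9 ± 5.02 FPKM in AS-tDR-007333-overexpressed cells and 15.7 ± 4.17 FPKM in NC cells (SD, n = 3 each), with a log2 fold change of -0.09 (SE 0.30, 95% CI -0.80 to 0.62, limma adjusted p = 0.9996). The fold change was 0.20 without AS-tDR-007333 replicate 2 and 0.07 without NC replicate 1, so its sign rested on single libraries.

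NFE2L2, which encodes NRF2, was at 9.50, 7.60 and 16.3 FPKM in AS-tDR-007333 libraries and at 27.9, 7.50 and 6.84 FPKM in NC libraries. NC replicate 1 was the highest of the 6 libraries, at 3.89 times the mean of the other NC libraries, and AS-tDR-007333 replicate 3 was the next. The means were 11.1 ± 4.57 FPKM in AS-tDR-007333-overexpressed cells and 14.1 ± 11.97 FPKM in NC cells (SD, n = 3 each). The log2 fold change was -0.10 (SE 0.54, 95% CI -1.40 to 1.19, limma adjusted p = 0.9996), an interval that holds more than a 2-fold difference in either direction. Without NC replicate 1 the log2 fold change was 0.51 (adjusted p = 0.750 from limma), and without AS-tDR-007333 replicate 2 it was 0.11. It was 0.65 in the Ballgown-style model with all 6 libraries. The direction for NFE2L2 thus depended on single libraries and on the model.

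BACH1, the repressor that competes with the activators for small MAF partners, was at 9.04, 10.0 and 9.90 FPKM in AS-tDR-007333 libraries and at 8.31, 10.3 and 10.3 FPKM in NC libraries. The lowest library was NC replicate 1, in which NFE2L2 and MAFK were highest, and the groups overlapped. The means were 9.66 ± 0.539 FPKM in AS-tDR-007333-overexpressed cells and 9.63 ± 1.14 FPKM in NC cells (SD, n = 3 each), with a log2 fold change of 0.0084 (SE 0.09, 95% CI -0.22 to 0.23, limma adjusted p = 0.9996). The ratio of NFE2L2 to BACH1 transcripts averaged 1.15 ± 0.452 in AS-tDR-007333-overexpressed cells and 1.58 ± 1.54 in NC cells (SD, n = 3 each), a difference smaller than either SD.

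KEAP1, the inhibitor of NFE2L2, was at 23.8, 15.0 and 16.6 FPKM in AS-tDR-007333 libraries and at 16.3, 15.3 and 14.7 FPKM in NC libraries. AS-tDR-007333 replicate 1 stood apart at 1.51 times the mean of the other AS-tDR-007333 libraries, and the other 5 libraries lay between 14.7 and 16.6 FPKM. The means were 18.5 ± 4.70 FPKM in AS-tDR-007333-overexpressed cells and 15.4 ± 0.825 FPKM in NC cells (SD, n = 3 each). The log2 fold change was 0.22 (SE 0.16, 95% CI -0.17 to 0.61, limma adjusted p = 0.9996), and 0.03 without AS-tDR-007333 replicate 1. None of MAFG, MAFK, BACH1, NFE2L1, NFE2L2 and KEAP1 (0 of 6) passed even an unadjusted p under 0.05, against 3.61% of all genes tested, and 0 of 6 had groups that did not overlap, against 8.76% of all genes tested. With 6 genes, a count of 0 is near both backgrounds.

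**Figure D3:**
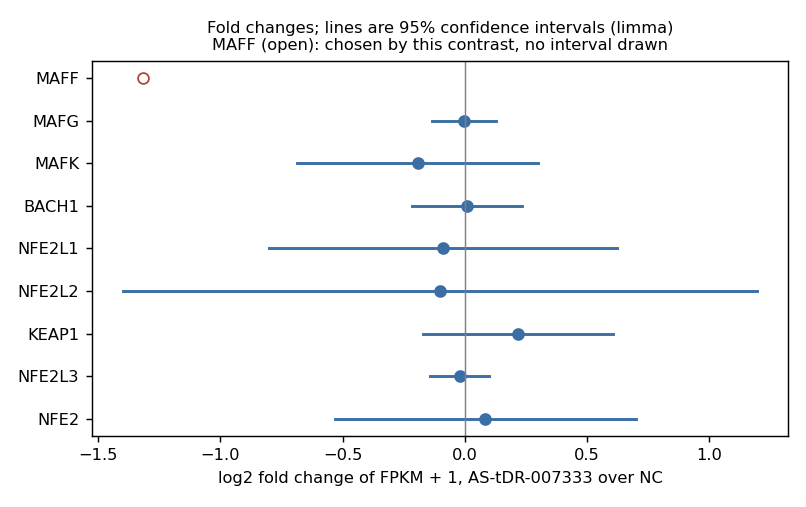
Log2 fold change of FPKM + 1, AS-tDR-007333-overexpressed over NC cells (points), with 95% CIs from limma (lines), for the 7 genes and the related CNC factors NFE2L3 and NFE2. MAFF (open point, no interval, as it was chosen by this contrast) was at -1.32, and the intervals of all 8 other genes included 0, from the narrow one of NFE2L3 to the wide one of NFE2L2.

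How far the libraries of a group lay apart differed widely among these genes. The highest NC library was 4.08 times the lowest for NFE2L2, 1.82 times for MAFK, 1.74 times for NFE2L1, 1.24 times for BACH1, 1.11 times for KEAP1, 1.09 times for MAFG and 1.01 times for MAFF. Among the AS-tDR-007333 libraries it was 2.14 times for NFE2L2, 2.03 times for NFE2L1, 1.59 times for KEAP1, 1.56 times for MAFF, 1.11 times for BACH1, 1.06 times for MAFG and 1.06 times for MAFK. At least a 1.5-fold range within a group was found for 10.1% of genes tested among AS-tDR-007333 libraries and for 11.4% among NC libraries, and at least a 2-fold range for 4.19% among AS-tDR-007333 libraries and for 4.43% among NC libraries. NFE2L2 therefore stood among the most variable genes in both groups, and its SD in NC libraries on the log2 scale exceeded that of 99.6% of the genes tested. The spread pooled over both groups was larger than that of 99.3% of genes for NFE2L2, 96.3% for NFE2L1, 92.7% for MAFK, 88.7% for KEAP1, 81.2% for MAFF, 65.3% for BACH1 and 13.2% for MAFG. A change of the same size was thus easier to call for MAFG than for NFE2L2.

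**Figure D4:**
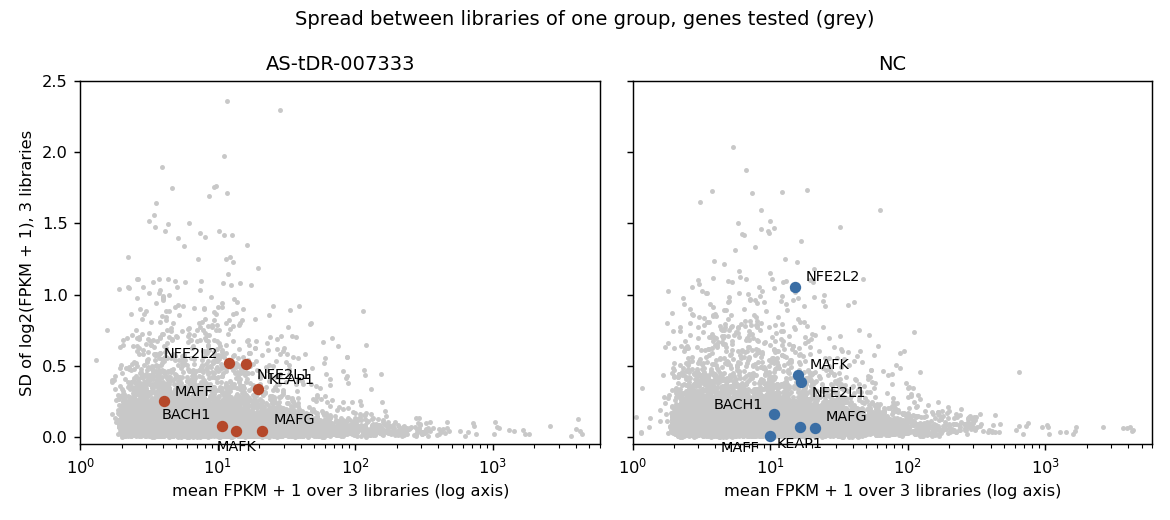
SD of log2(FPKM + 1) between the 3 libraries of a group against the mean level (log axis of FPKM + 1), for AS-tDR-007333 libraries (left) and NC libraries (right), with the 11042 genes tested in grey. NFE2L2 sits near the top and MAFF near the bottom of the NC panel, while MAFF lies higher in the AS-tDR-007333 panel and MAFG lies low in both.

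MAFF ranked 8 of 10 network genes by mean level in AS-tDR-007333-overexpressed cells and also in NC cells. In AS-tDR-007333-overexpressed cells, mean levels ran from NFE2L3, a CNC factor related to NFE2L1, at 31.0 FPKM, through MAFG, KEAP1, NFE2L1, MAFK, NFE2L2 and BACH1 at 20.1, 18.5, 14.9, 12.6, 11.1 and 9.66 FPKM, to MAFF at 3.06, the erythroid CNC factor NFE2 at 2.27 and BACH2, the lymphoid relative of BACH1, at 0.476 FPKM. Neighbours in this order whose ranges did not overlap were NFE2L3 and MAFG, BACH1 and MAFF, and NFE2 and BACH2. In NC cells MAFF, at 9.01 FPKM, followed BACH1 at 9.63 FPKM with overlapping ranges, and its range was separate from that of NFE2 at 2.19 FPKM. NFE2L3, at 31.5 FPKM in NC cells, was again the highest and separate from MAFG, which in NC cells was also separate from NFE2L1. Between NFE2L1 and BACH1, each gene overlapped in range with its neighbours in the order in both groups, while the range of MAFK lay above that of BACH1 in both groups. MAFF lay above 32.4% of all listed genes in AS-tDR-007333-overexpressed cells and above 65.4% in NC cells. NFE2L3 had a log2 fold change of -0.02 (95% CI -0.14 to 0.10) and NFE2 one of 0.08 (95% CI -0.53 to 0.70), both from limma.

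The genes lie on 6 chromosomes of GRCh37. MAFF is at chr22:38596774-38612518 on the plus strand, MAFG at chr17:79876146-79885590 on the minus strand, MAFK at chr7:1570350-1582679 on the plus strand, BACH1 at chr21:30566392-31003071 on the plus strand, NFE2L1 at chr17:46125691-46138849 on the plus strand, NFE2L2 at chr2:178092323-178257425 on the minus strand and KEAP1 at chr19:10596796-10614417 on the minus strand. Overlaps were taken between whole gene spans, introns included, in GENCODE 44 mapped to GRCh37. MAFF overlaps PLA2G6, a phospholipase gene on the opposite strand, over 14012 bases. PLA2G6 was at 2.06, 2.18 and 1.87 FPKM in AS-tDR-007333 libraries and at 1.78, 1.77 and 2.11 FPKM in NC libraries, a log2 fold change of 0.07 that did not pass the test. The kit kept the strand, but whether counting used it was not given in the sources used here. How reads of any shared exon bases were counted is therefore unknown. Of 7 neighbours of MAFF fixed as a list, 5 were tested, and 0 passed an unadjusted p under 0.05, near the background of 3.61% for so few genes, with log2 fold changes of -0.16 (TMEM184B) to 0.07 (PLA2G6). MAFG shares 3054 bases with SIRT7, a sirtuin gene on the same strand, so the split of reads between them is uncertain, and SIRT7 had a log2 fold change of 0.0093. MAFK overlaps TMEM184A on the opposite strand over 809 bases, with a log2 fold change of 0.06 for TMEM184A. BACH1 overlaps GRIK1 on the opposite strand over 93818 bases and GRIK1-AS2 on the same strand over 34708 bases, and neither is among the listed genes.

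The genes whose levels followed MAFF most closely over the 6 libraries were, by Pearson's r of log2(FPKM + 1) over 1418 genes with at least a 1.5-fold range, IQCJ-SCHIP1 (r = 0.99), the ATP synthase subunit gene ATP5G2 (0.97), RNF6 (0.96), PCED1B (0.95) and TMEM135 (0.91). The most opposite were SCHIP1 (-0.99), INSIG2, an inhibitor of sterol regulatory element processing (-0.97), and the Mediator subunit gene MED18 (-0.97). The 6 libraries fall on 2 levels by group for MAFF, so these values mostly rank genes by how cleanly they separate the groups, and ATP5G2, PCED1B, SCHIP1 and MED18 are themselves among the called genes. IQCJ-SCHIP1 is a read-through gene with SCHIP1 and can share reads with it, so their opposite values are uncertain. Within the family, r with MAFF was -0.64 for KEAP1, 0.36 for MAFK, 0.11 for NFE2L2, 0.05 for NFE2L1, 0.04 for BACH1 and 0.04 for MAFG, all over the same 6 libraries. No gene of the family had a pattern close to that of MAFF.

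Genes that act on these factors were read from lists. Of 13 tested genes of the KEAP1 ligase and of NFE2L2 turnover, which include CUL3 and the KEAP1-binding autophagy receptor SQSTM1, 0 passed an unadjusted p under 0.05 in either direction, higher or lower, against 1.63% and 1.98% of all genes tested, with a median log2 fold change of 0.0060. All genes tested had a median of -0.01. Of 9 genes that release and process NFE2L1, such as the protease gene DDI2, 0 were higher and 0 lower at the same p, with a median of -0.0062. Of 7 genes of heme breakdown and BACH1 turnover, 1 was higher and 0 were lower at that p, the biliverdin reductase gene BLVRB, with a median of 0.03. SQSTM1 was at 53.0, 96.5 and 89.5 FPKM in AS-tDR-007333 libraries and at 88.1, 51.4 and 87.6 FPKM in NC libraries, so 1 library of each group was low and the groups overlapped. Of the 4 large MAF factors, 0 were listed.

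Targets of the heterodimers showed small differences. Of 42 NFE2L2 target genes, 0 were called at an adjusted p under 0.05, while at an unadjusted p under 0.05 the number higher in AS-tDR-007333-overexpressed cells was 3 and the number lower was 0, against 1.63% and 1.98% of all genes tested. The median log2 fold change was 0.01, and all values lay between -0.13 and 0.38. The 3 higher genes were FTL, the ferritin light chain, PRDX1, a peroxiredoxin, and BLVRB. FTL was at 1841, 1811 and 1855 FPKM in AS-tDR-007333 libraries and at 1631, 1635 and 1771 FPKM in NC libraries, a log2 fold change of 0.13 (unadjusted p = 0.0161, limma adjusted p = 0.9996). PRDX1 was at 330.2, 332.4 and 310.9 FPKM in AS-tDR-007333 libraries and at 250.6, 287.2 and 306.2 FPKM in NC libraries, a log2 fold change of 0.21 (unadjusted p = 0.0330, limma adjusted p = 0.9996). BLVRB was at 77.9, 75.7 and 77.4 FPKM in AS-tDR-007333 libraries and at 70.5, 69.4 and 74.1 FPKM in NC libraries, a log2 fold change of 0.11 (unadjusted p = 0.0434, limma adjusted p = 0.9996). For these 3 genes the groups did not overlap, as for 5 of the 42 targets, against 8.76% of all genes tested. The remaining ones were SRXN1, which was higher, and AKR1C2, which was lower, with log2 fold changes of 0.12 and -0.05. The count of higher targets was 1 to 4 when each library was left out in turn, and the count of lower targets was 3 without NC replicate 1 and 0 without any other single library.

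NQO1, the quinone reductase that is a standard readout of NFE2L2, was at 102.8, 98.5 and 98.1 FPKM in AS-tDR-007333 libraries and at 99.9, 93.6 and 102.0 FPKM in NC libraries, with overlapping groups. In NC replicate 1, the library with the highest NFE2L2 transcript, the median NFE2L2 target was at -0.06 on the log2 scale relative to the other libraries, against 0.02 for all genes tested. The library with most NFE2L2 transcript was thus not one with higher target transcripts. Of 13 genes that BACH1 represses, 2 were higher at an unadjusted p under 0.05 (FTL and BLVRB, both counted among the NFE2L2 targets too) and 0 lower, against 1.63% and 1.98% of all genes tested, with a median log2 fold change of 0.02. HMOX1, heme oxygenase 1 and the classic BACH1 target, was at 9.07, 8.57 and 8.43 FPKM in AS-tDR-007333 libraries and at 9.57, 8.18 and 7.80 FPKM in NC libraries, a log2 fold change of 0.03 (95% CI -0.17 to 0.23 from limma). Of 33 proteasome genes, the targets of NFE2L1, 2 were higher at an unadjusted p under 0.05, PSMA7 by 0.14 and PSMB2 by 0.24 on the log2 scale, and 0 were lower, against the same shares of all genes tested, with a median of 0.02. Neither was called over all genes (limma adjusted p = 0.9996 for PSMA7 and for PSMB2).

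MAFF itself belongs to the early genes induced by serum and stress, which were listed as a group without it. Of 26 tested early genes, 0 passed an unadjusted p under 0.05 in either direction, against 3.61% of all genes tested, with a median log2 fold change of 0.02. The values ran from -0.64 for KLF6, a Krüppel-like factor, to 0.37, and both ends varied between libraries. KLF6 was at 11.6, 5.47 and 3.95 FPKM in AS-tDR-007333 libraries and at 5.90, 14.5 and 13.4 FPKM in NC libraries, so AS-tDR-007333 replicate 1 and NC replicate 1 each lay among the other group. GADD45B, a stress gene, had a log2 fold change of -0.53 (95% CI -1.19 to 0.12 from limma). In the other direction, SRF and KLF4 had log2 fold changes of 0.09 and 0.07. They were the 2 of 26 early genes whose groups did not overlap, against 8.76% of all genes tested. Of 28 tested AP-1 and other leucine zipper genes, 0 were higher and 0 lower at that p, against 1.63% and 1.98% of all genes tested, with values between -0.17 (JUND) and 0.21 (ATF3) and a median of -0.02. At those background shares, counts of 0 in lists of this size say little about either list.

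**Figure D5:**
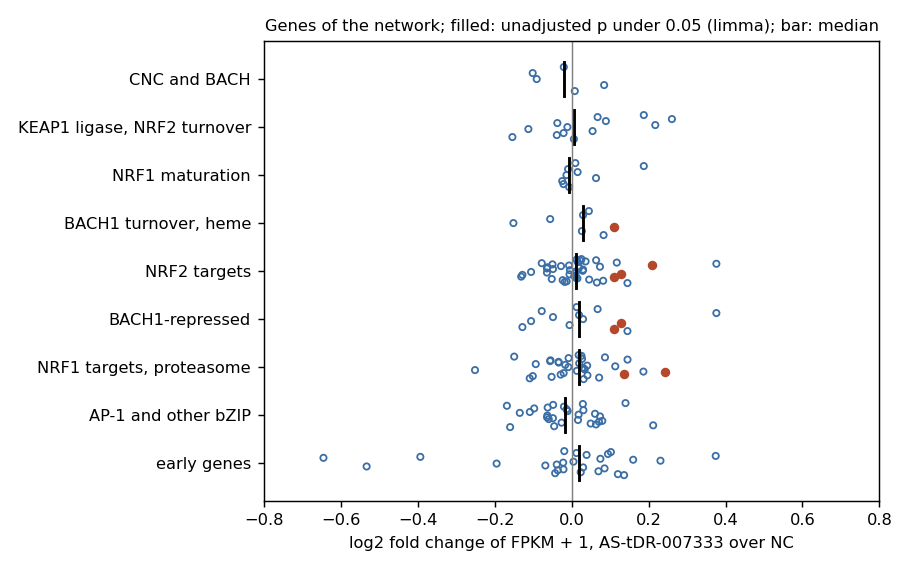
Log2 fold change of FPKM + 1, AS-tDR-007333-overexpressed over NC cells, for each tested gene (circle) of 9 lists of partners, regulators and targets, with the median of each list (bar), where filled circles had an unadjusted p under 0.05 in limma. Medians lay between -0.02 and 0.03, and the filled circles, all above 0, were FTL, PRDX1 and BLVRB among NFE2L2 targets and PSMA7 and PSMB2 among proteasome genes, with BLVRB and FTL shown again in the other lists that hold them.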

How the data were processed

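According to the methods, the authors mapped stranded Illumina reads to GRCh37 with HISAT2 and calculated FPKM with Ballgown. In the submitters' processing notes, the tools are HISAT2 2.0.5 and featureCounts 1.5.0-p3, and the annotation release was not given in the sources used here. The deposited table holds the authors' FPKM for 12154 protein-coding genes that average 0.5 FPKM or more in a group, without counts, so depth per library is unknown. The 6 libraries were grouped by the genotype in the labels. Here, log2(FPKM + 1) was fitted with limma 3.58.1 (trend) in R 4.3.3 for genes averaging 1 FPKM or more, with Benjamini-Hochberg adjustment, and the procedure was tested on simulated data. Small MAF sums and shares were compared without a test, since MAFF, which enters them, was chosen by its call in this contrast. An exact permutation test of 3 libraries against 3 could also not reach a p under 0.1 (two-sided). Promoters came from RefSeq (GRCh38.p14) and overlaps from GENCODE 44 mapped to GRCh37. Plots were made with Python 3.11.15 and matplotlib 3.10.9. Alternatives were no filter, a filter at 5 FPKM, a pseudocount of 0.1, median-of-ratios scaling, a replicate block, and leaving out each library. Others were a Ballgown-style model with a library term on all 12154 genes, and a per-gene model without that term on the 11042 filtered genes. Counts of NFE2L2 targets without each library were added after the data were seen.

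The 7 genes and the gene lists were chosen with earlier results of these data known. Named genes were the 7 genes, genes overlapping them, list genes at an unadjusted p under 0.05 or else up to 4 with the smallest p, the genes most like MAFF, and those next to the threshold. EPCAM, NQO1, HMOX1, SQSTM1, CUL3, DDI2, ATF3 and ALDH1A1 were named outside this rule, as known partners, targets or markers.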

Additional observations from a re-analysis of the deposited data

How the results depend on the processing

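MAFF kept a negative log2 fold change in all 13 alternatives but lost its call in 9. The alternatives reuse the libraries that chose MAFF, so the kept sign adds no support. Its log2 fold change and adjusted p were -1.55 and 0.0666 with a pseudocount of 0.1, -1.23 and 0.466 in the Ballgown-style model and -1.32 and 0.557 in the per-gene model without the library term. When each library was left out in turn, its log2 fold change was -1.41 to -1.17 and its adjusted p 0.0188 to 0.140, and it was called only without AS-tDR-007333 replicate 1. The count of called genes, 7, was 0 in the Ballgown-style model (968 of 12154 genes at an unadjusted p under 0.05). It was also 0 in the per-gene model without the library term (448 of 11042 genes). These models differed in the genes tested as well as in the library term. When each library was left out, the count was 1 (without NC replicate 3) to 18 (without NC replicate 1). It was 11 without AS-tDR-007333 replicate 2 and 14 without NC replicate 2. MAFG, MAFK, BACH1, NFE2L1, NFE2L2 and KEAP1 were called in none of the 13, with a lowest adjusted p of 0.750. Their sign changed in 4, 2, 4, 3, 3 and 0 of the 13. The log2 fold change of NFE2L2 ranged from -0.43 to 0.65 and that of KEAP1 from 0.03 to 0.35. The difference in summed small MAF FPKM ranged from -10.4 to -5.0 when each library was left out and was -8.07 after median-of-ratios scaling. The causes of these changes were not tested. Without counts, the error that depth sets could not be given.

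Replicates of the 2 groups share only a number in the labels. With each library taken as deviations from its group mean on the log2 scale, same-numbered libraries correlated at -0.013, 0.011 and -0.0054 over the genes tested. With the replicate number as a block, the values for MAFF were -1.32 (log2 fold change) and 0.234 (adjusted p), and 1 gene was called.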
